A study of Mus musculus with 8 samples.

Results

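The genes described here are 40 genes of fibroblasts and the extracellular matrix, chosen by name: collagens, small proteoglycans, microfibril proteins, genes of activated and of resting fibroblasts, PDGF receptors, and proteases with their inhibitors. Each was read from the array probe that names no other gene and has the highest mean over the 8 tumours. A probe of that kind was found for 39 of the 40, out of 22180 genes so measured; Fbn1 (fibrillin 1) was not analysed here. All 39 also passed the filter on dim genes (mean log2 signal of at least 4.06), which 16635 genes passed in all.

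Gene expression was profiled in 8 primary mammary tumours of transgenic FVB mice, with total RNA of the whole tumour on 1 Affymetrix array each and no treatment. In 4 tumours, labelled NeuNT, the transgene NeuNT (an ErbB2 receptor oncogene) is the only change named. The other 4, labelled NeuNT/H1074R, carry NeuNT together with a mutant p110α, the catalytic subunit of phosphoinositide 3-kinase, which the series title writes as H1047R. NeuNT and the FVB strain are thus shared by both groups, and the design sets tumours with mutant p110α against tumours with wild-type p110α. The labels name neither the promoters that drive the transgenes nor the ages, and do not say that each tumour came from a different mouse, so p-values here reflect only how far these 8 tumours differ from one another.

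Fibroblasts make most of the matrix of a mammary tumour. Fibrillar collagens assemble into the fibres that stiffen the stroma, cross-linked by lysyl oxidases and spaced by small leucine-rich proteoglycans such as decorin. Fibroblasts in a growing tumour take on an activated state, marked by periostin and fibroblast activation protein, whereas resting fibroblasts around vessels and ducts are known for Pi16, Cd34 and dermatopontin.

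Array values are log2 signals, so a difference of 1 is a doubling. Each array had a median between 4.81 and 4.87. The epithelial genes Epcam (10.18 to 10.99) and Krt18 (10.36 to 11.36) were high in every tumour. Other luminal epithelial markers varied to different degrees. Krt19 varied most, from 5.37 in NeuNT replicate 3 to 11.52 in NeuNT/H1074R replicate 3, and Cldn4 ran from 8.18 to 11.33. Elf5 stayed between 8.75 and 9.08 over all tumours, and Cdh1 between 9.83 and 10.51. The centred mean of the 16 luminal markers ran from −0.39 in NeuNT/H1074R replicate 4 to 0.26 in NeuNT/H1074R replicate 3. Skeletal muscle genes set NeuNT/H1074R replicates 1 and 3 apart, with centred means of 1.21 and 1.05 over 18 genes, against −0.53 to −0.20 in the other tumours. In bulk RNA, fewer cells of a type and less RNA per cell cannot be told apart. Over all 16635 genes tested in limma, 0 passed an adjusted p of 0.05, and 635 (3.82%) had an unadjusted p below it. A test per gene that takes the variances as equal, without moderation, gave 0 and 714 (4.29%).

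Collagen transcripts had no common direction between the genotypes. The resting adventitial genes, leucine-rich proteoglycans and secreted matrix proteins named among the 39 genes had lower means in NeuNT/H1074R tumours. Of the 39 genes, 32 (82.1%) had a lower mean in NeuNT/H1074R, beside 50.5% of all genes tested. The 32 are not independent results, because the genes went together across the same 8 tumours. The median Pearson r of the other 38 genes was 0.43 with Col1a1 and 0.47 with Dpt, against 0.03 and 0.01 over all genes. The median log2 difference was −0.26 over the 39 genes and −0.00 over all genes. Leaving out NeuNT replicate 2 gave a median of −0.10 with 27 genes lower, and leaving out NeuNT replicate 4 gave −0.51 with 36 lower. Among the NeuNT/H1074R tumours the median became −0.42 once replicate 1 was left out, −0.15 for replicate 3 and −0.17 for replicate 4. The lowest count was 25 genes, when NeuNT replicate 3 was left out. A mean lower by more than 0.5 was found for 11 of the 39 (28.2%) and 4.38% of all genes, and a mean higher by more than 0.5 for 0 of the 39 and 2.19% of all genes. These shares are not like for like, because the 39 genes varied more between tumours of a genotype. Their median residual SD was 0.54, against 0.248 over all genes, and more variable genes pass a fixed cut-off more often without any genotype difference. None of the 39 passed the test (limma, smallest adjusted p = 0.978, where the background is 0%). At an unadjusted p under 0.05 there were 2 of the 39, Dpt and Serpinf1, beside 3.82% of all genes. Both were lower, beside 1.71% of all genes that were lower at that p, and the equal-variance test gave 0 of the 39 (4.29% of all genes). In 0 of the 39 did the values of the genotypes fail to overlap, against 2.69% of all genes. The count of genes with a lower mean was 29 with quantile normalization and 33 with arrays centred on their medians. Without both tumours high in muscle genes, 31 of the 39 had a lower mean, the median was −0.34 and 0 passed.

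**Figure D1:**
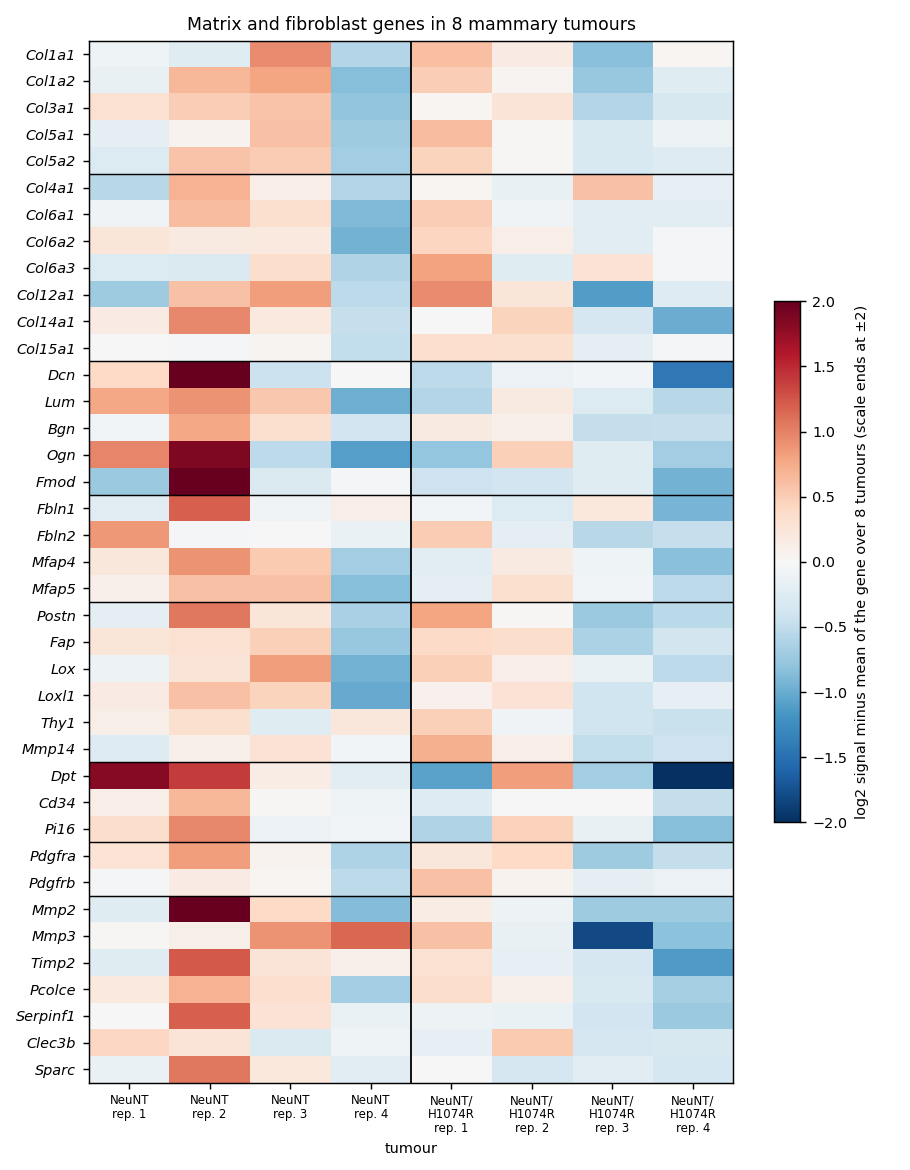
Log2 signal of each of the 39 genes (rows, grouped by role) in each tumour (columns), minus the gene's mean over the 8 tumours; red is above the mean and blue below, and the colour scale ends at 2 on either side. NeuNT replicate 2 holds the highest value of 21 genes and NeuNT replicate 4 the lowest of 18.

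The 5 fibrillar collagens varied more between tumours of a genotype than between genotypes. Col1a1, a chain of type I collagen, had log2 signals of 10.00, 9.85, 11.04 and 9.51 in NeuNT replicates 1 to 4 and of 10.69, 10.26, 9.27 and 10.14 in NeuNT/H1074R replicates 1 to 4. The highest value lay in NeuNT replicate 3 and the lowest in NeuNT/H1074R replicate 3. Between them, NeuNT/H1074R replicates 1, 2 and 4 all lay above NeuNT replicates 1, 2 and 4. The log2 difference of Col1a1 was −0.01 ± 0.38 (SE; 95% interval −0.88 to 0.86; limma, adjusted p = 0.999). Col3a1, the chain of type III collagen, had 9.17, 9.35, 9.43 and 8.07 in NeuNT and 8.89, 9.12, 8.28 and 8.54 in NeuNT/H1074R. NeuNT replicate 4 was the lowest of the 8 tumours and the other NeuNT tumours were the highest. The log2 difference of Col3a1 was −0.30 ± 0.32 (SE; limma, adjusted p = 0.978), and −0.61 without that tumour. Col1a2, the partner chain of type I collagen, stood at −0.23, and Col5a1 and Col5a2, chains of the type V collagen that starts fibres, at 0.11 and −0.05. The median over the 5 genes was −0.05, with 4 lower and 1 higher, and ran from −0.30 without NeuNT replicate 4 to 0.11 without NeuNT replicate 3. Col1a1 turned to 0.01 with quantile normalization.

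The other 7 collagens had 5 higher and 2 lower means and a median log2 difference of 0.15, which turned to −0.13 without NeuNT replicate 4 and to −0.0054 without NeuNT replicate 1. Col6a3, a chain of the beaded-filament collagen VI, had 7.15, 7.13, 7.77 and 6.82 in NeuNT and 8.22, 7.19, 7.72 and 7.39 in NeuNT/H1074R. It was highest in NeuNT/H1074R replicate 1, and the groups overlapped. Its log2 difference of 0.41 ± 0.27 (SE) was the most positive among the 39 genes and did not pass (limma, adjusted p = 0.978). Col6a1 and Col6a2, whose genes lie next to each other in the RefSeq annotation, stood at 0.01 and 0.16. A lower probe of Col6a1 gave −0.13, and Col6a1 stood at −0.01 with arrays centred on their medians. The basement membrane chain Col4a1 stood at 0.15 and Col15a1, which lies beside basement membranes, at 0.24. The collagens that coat fibres stood at −0.09 for Col12a1 and −0.43 for Col14a1. Over all 12 collagens, 6 were higher and 6 lower, with a median of −0.00, and 9 of the 12 had their lowest value in NeuNT replicate 4.

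Activated fibroblast genes also had small differences between the genotypes. Postn (periostin) had 9.99, 11.25, 10.44 and 9.54 in NeuNT and 10.98, 10.21, 9.45 and 9.65 in NeuNT/H1074R. NeuNT replicate 2 was highest, NeuNT/H1074R replicate 1 next, and NeuNT/H1074R replicate 3 lowest. The log2 difference of Postn was −0.23 ± 0.43 (SE; limma, adjusted p = 0.982), and 0.08 without NeuNT replicate 2. Fap, the membrane protease that names activated fibroblasts, had 5.97, 6.04, 6.20 and 4.98 in NeuNT and 6.11, 6.08, 5.10 and 5.36 in NeuNT/H1074R. There were 5 tumours near 6 and 3 lower ones, NeuNT replicate 4 and NeuNT/H1074R replicates 3 and 4, with a log2 difference of −0.13 ± 0.33 (SE). The lysyl oxidases Lox and Loxl1 stood at −0.03 and −0.09, the collagenase Mmp14 at −0.04 and the surface protein Thy1 at −0.21. All 6 means were lower in NeuNT/H1074R as deposited, with a median of −0.11, while Lox and Mmp14 turned to 0.02 and 0.0027 with quantile normalization. The median turned to 0.02 when any one of 3 tumours was left out, namely replicate 2 or 3 of NeuNT or the third of NeuNT/H1074R. The 95% interval of each of the 6 held 0.

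Resting adventitial genes had lower means in NeuNT/H1074R for 3 of 3, with a median log2 difference of −0.57. With single tumours left out, this median ran from −0.82 (NeuNT/H1074R replicate 2) to −0.35 (NeuNT replicate 2). Dpt gave the widest difference of the 39 genes. Dpt, encoding dermatopontin, a small matrix protein that binds decorin, had log2 signals of 9.22, 8.80, 7.55 and 7.18 in NeuNT and 6.33, 8.23, 6.70 and 5.21 in NeuNT/H1074R. NeuNT/H1074R replicates 1, 3 and 4 lay below every NeuNT tumour, and NeuNT/H1074R replicate 2 lay among the NeuNT values. The means were 8.18 ± 0.98 (SD, n = 4) and 6.62 ± 1.25 (SD, n = 4), which is a 2.95-fold lower signal. The log2 difference of −1.56 ± 0.67 (SE; 95% interval −3.10 to −0.03) had an unadjusted p of 0.0465 in limma and an adjusted p of 0.978. Without NeuNT/H1074R replicate 4 it was −1.09 and without NeuNT/H1074R replicate 2 it was −2.10.

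Pi16, a secreted peptidase inhibitor of adventitial fibroblasts, had 7.09, 7.71, 6.63 and 6.69 in NeuNT and 6.14, 7.21, 6.60 and 5.89 in NeuNT/H1074R. The order of tumours resembled that of Dpt, with NeuNT/H1074R replicate 4 lowest and replicate 2 the highest of its group. The log2 difference of Pi16 was −0.57 ± 0.34 (SE; limma, adjusted p = 0.978), or −0.35 without NeuNT replicate 2. Cd34, a sialomucin that endothelial cells also make, had 8.12, 8.64, 8.0 and 7.89 in NeuNT and 7.72, 7.98, 7.98 and 7.50 in NeuNT/H1074R. The groups overlapped at about 8, and the log2 difference was −0.37 ± 0.20 (SE; limma, adjusted p = 0.978), or −0.21 without NeuNT replicate 2. The 17 blood endothelial markers, each centred on its own mean over the 8 tumours, averaged −0.36 to 0.52 in NeuNT, highest in replicate 2, and −0.17 to 0.01 in NeuNT/H1074R. All 3 adventitial genes had their lowest value in NeuNT/H1074R replicate 4. The mean of the 16 tested of 18 adipocyte markers, centred likewise, was 0.78, 0.83, −0.40 and −0.18 in NeuNT and −0.35, 0.06, 0.04 and −0.78 in NeuNT/H1074R. Of those 16 markers, 15 had lower means in NeuNT/H1074R, and the adipokine Adipoq ran from 4.98 to 6.89 in NeuNT and from 4.60 to 5.73 in NeuNT/H1074R. Mast cell markers, 8 tested of 15, were lower for 8 of 8, with centred means of 0.68, 0.69, −0.34 and 0.76 in NeuNT and −0.11, −0.21, −0.51 and −0.98 in NeuNT/H1074R. Kit, 1 of the 8, is also a luminal marker here and lay between 9.49 and 10.96. In NeuNT replicate 4, Gata2 reached 8.25 (at most 6.24 elsewhere) and Hdc 6.67 (at most 5.66 elsewhere). Among dim markers left out of the test, Ms4a2 was 3.23 to 3.39 in NeuNT and 3.41 to 3.56 in NeuNT/H1074R. Fcer1a, also dim, was 2.34 to 2.65 in NeuNT and 2.13 to 2.40 in NeuNT/H1074R. Macrophage markers were lower for 15 of 16, with centred means of −0.05 to 0.35 in NeuNT and −0.79 to 0.32 in NeuNT/H1074R. Adipocyte and mast cell markers were lowest in NeuNT/H1074R replicate 4, and macrophage markers in NeuNT/H1074R replicate 3. The part of these cells in the Dpt, Pi16 and Cd34 values was not tested.

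**Figure D2:**
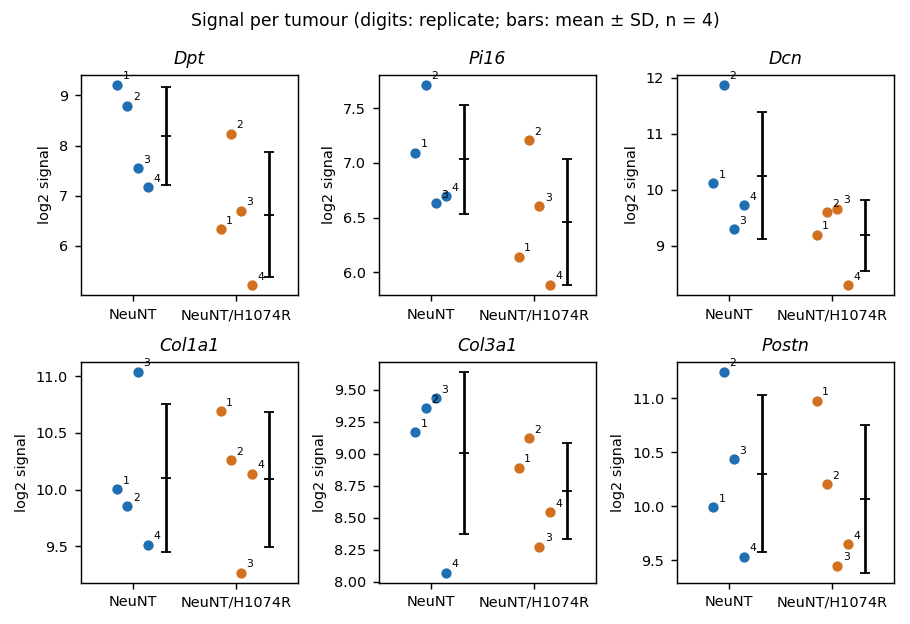
Log2 signal of 6 genes in each tumour (points, with the replicate number) by genotype, with the mean and SD of 4 tumours as black bars. Dpt is at 6.70 or lower in NeuNT/H1074R replicates 1, 3 and 4 and at 7.18 or higher in all other tumours. Col3a1 is at 9.17 or higher in NeuNT replicates 1 to 3 and at 9.12 or lower in all other tumours. The genotypes overlap in Dpt, Col1a1, Col3a1 and Postn.

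Small leucine-rich proteoglycans, which bind collagen fibres and set their width, were lower on average in NeuNT/H1074R for 5 of 5 genes, with a median log2 difference of −0.62. The median was −0.15 without NeuNT replicate 2 and −1.09 without NeuNT replicate 4. Dcn (decorin) had 10.12, 11.88, 9.30 and 9.73 in NeuNT and 9.20, 9.60, 9.66 and 8.29 in NeuNT/H1074R. NeuNT replicate 2 was the highest tumour, NeuNT/H1074R replicate 4 the lowest, and the others overlapped. Its log2 difference was −1.07 ± 0.55 (SE; limma, adjusted p = 0.978), and −0.53 without NeuNT replicate 2.

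Fmod (fibromodulin) had 6.58, 10.36, 7.03 and 7.31 in NeuNT and 6.91, 6.94, 7.08 and 6.38 in NeuNT/H1074R. NeuNT replicate 2 alone lay above 7.31, and without it the log2 difference moved from −0.99 ± 0.74 (SE) to −0.15. Ogn (osteoglycin) and Bgn (biglycan) followed, at −0.62 and −0.33 with all tumours and −0.10 and −0.12 without that tumour. Lum (lumican), whose gene neighbours Dcn, stood at −0.62, and at −1.04 without NeuNT replicate 4, its lowest tumour. All 5 genes were highest in NeuNT replicate 2.

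Smooth muscle genes were also high in NeuNT replicate 2. There the 15 tested of 16 pericyte and smooth muscle markers had a centred mean of 1.28, against −0.45 to 0.38 in the other tumours. Calponin (Cnn1) and smooth muscle myosin (Myh11) reached 11.53 and 10.79, against at most 8.42 and 7.63 elsewhere. The mean of the 13 tested of 14 basal and myoepithelial markers was 1.26 there, with −0.87 to 0.91 in the other tumours; both lists hold 4 genes in common. The part of these cells in the proteoglycan values was not tested.

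Microfibril and elastic fibre genes had lower means for 4 of 4 measured genes, with a median of −0.41. Leaving out NeuNT replicate 2 gave −0.23, and leaving out NeuNT/H1074R replicate 4 gave −0.26. Fbln1 (fibulin 1) stood at −0.52, Mfap4 at −0.47, Fbln2 at −0.34 and Mfap5 at −0.22, and none passed (limma, adjusted p from 0.978 to 0.979). Without NeuNT replicate 2, Fbln1 stood at −0.21, Mfap4 at −0.25 and Mfap5 at −0.057. Fbln2 stood at −0.11 without NeuNT replicate 1, its highest tumour.

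The receptors for platelet-derived growth factor, through which fibroblasts and pericytes receive growth signals, had small differences that did not pass. Pdgfra, the fibroblast receptor, had 7.56, 8.12, 7.36 and 6.68 in NeuNT and 7.51, 7.68, 6.58 and 6.81 in NeuNT/H1074R, a log2 difference of −0.29 ± 0.35 (SE). Pdgfrb, which pericytes also carry, had 8.45, 8.65, 8.53 and 7.96 in NeuNT and 9.07, 8.57, 8.31 and 8.38 in NeuNT/H1074R, a difference of 0.18 ± 0.21 (SE). Values of both overlapped (limma, adjusted p = 0.978). Pdgfra stood at −0.055 without NeuNT replicate 2. Pdgfrb stood at 0.019 without NeuNT/H1074R replicate 1. Among the 4 PDGF ligands, 3 had lower means, and Pdgfc stood at 0.48 ± 0.20 (SE; limma, adjusted p = 0.978).

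Proteases, inhibitors and secreted matrix proteins had lower means in NeuNT/H1074R for 7 of 7 genes, with a median of −0.67. Without NeuNT replicate 2 the 7 means were still lower, with a median of −0.19, and without NeuNT/H1074R replicate 4 the median was −0.42. Serpinf1, an antiangiogenic serpin, had 7.61, 8.80, 7.88 and 7.46 in NeuNT and 7.49, 7.46, 7.21 and 6.85 in NeuNT/H1074R. The groups met at about 7.5, and the difference of −0.68 ± 0.30 (SE; 95% interval −1.36 to −0.01; unadjusted p = 0.0483 and adjusted p = 0.978 in limma) was −0.40 without NeuNT replicate 2.

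Mmp3 (stromelysin 1) had 7.05, 7.14, 7.92 and 8.17 in NeuNT and 7.61, 6.88, 5.22 and 6.21 in NeuNT/H1074R. NeuNT/H1074R replicate 3 was far below the rest, and the log2 difference of −1.09 ± 0.50 (SE; limma, adjusted p = 0.978) was −0.67 without it. Mmp3 was highest in NeuNT replicate 4, the tumour where 18 of the 39 genes were lowest. The gelatinase Mmp2 stood at −0.69, or −0.11 without NeuNT replicate 2, where it reached 10.78 against at most 9.10 elsewhere. Timp2, a metalloprotease inhibitor, stood at −0.67, the collagen-binding glycoprotein Sparc at −0.46, the procollagen processing enhancer Pcolce at −0.26 and Clec3b (tetranectin) at −0.15. Without NeuNT replicate 2 they stood at −0.37, −0.19, −0.077 and −0.088, and Clec3b stood at −0.036 without NeuNT replicate 1.

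**Figure D3:**
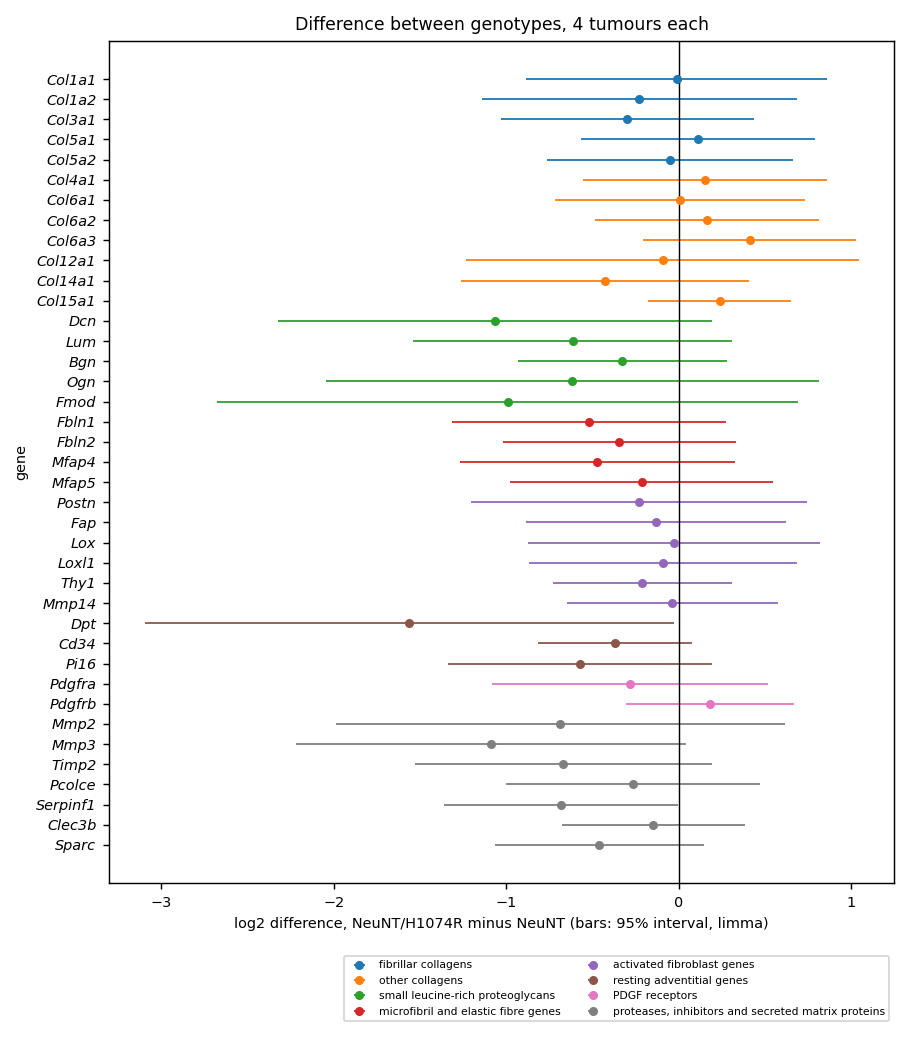
Log2 difference between genotypes (NeuNT/H1074R minus NeuNT, 4 tumours each) for the 39 genes, coloured by role, with 95% intervals from limma. Only the intervals of Dpt (−3.10 to −0.03) and Serpinf1 (−1.36 to −0.01) lie below 0 in full, and neither gene passed after adjustment.

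Resting and activated genes were set against each other within each tumour. The 11 fibrillar collagen and activated genes, each centred on its mean over the 8 tumours, averaged −0.04, 0.38, 0.50 and −0.62 in NeuNT and 0.46, 0.13, −0.51 and −0.30 in NeuNT/H1074R. The average of Dpt, Cd34 and Pi16 was 0.77, 1.01, 0.02 and −0.12 in NeuNT and −0.64, 0.43, −0.28 and −1.18 in NeuNT/H1074R. NeuNT replicates 2 and 3 and NeuNT/H1074R replicate 2 were above 0 in both averages, and NeuNT/H1074R replicate 1 was high in the first and low in the second. The first average minus the second was −0.80, −0.63, 0.48 and −0.50 in NeuNT and 1.11, −0.30, −0.23 and 0.87 in NeuNT/H1074R. The genotypes overlapped, since NeuNT replicate 3 lay above NeuNT/H1074R replicates 2 and 3. The means were −0.36 ± 0.57 (SD, n = 4) and 0.36 ± 0.73 (SD, n = 4), and the difference of 0.73 compares with a pooled SD of 0.66 within a genotype. It ran from 0.48 without NeuNT/H1074R replicate 1 to 1.01 without NeuNT replicate 3, and was 0.96 without Cd34. Of the 3 genes in the second average, Dpt differed most (−1.56, against −0.57 for Pi16 and −0.37 for Cd34). The score was not computed without Dpt, so how far it rests on that gene is not given. No test was made on this score, because its genes were named with earlier results known.

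**Figure D4:**
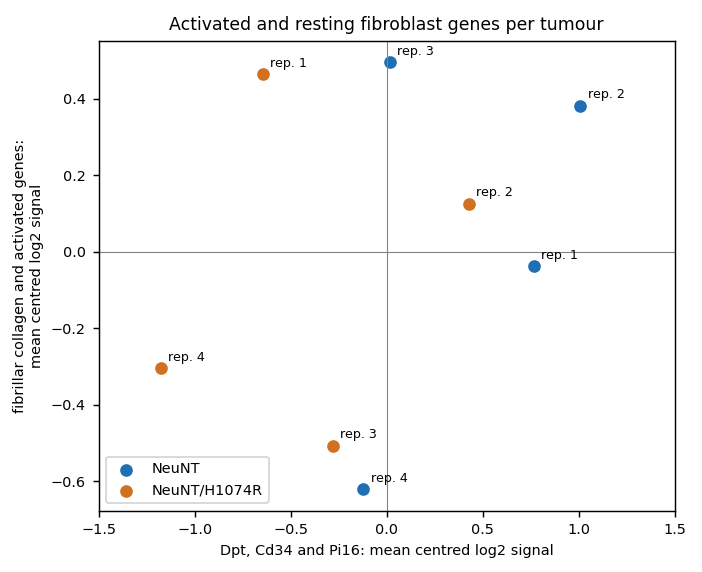
Mean centred log2 signal of the 11 fibrillar collagen and activated genes (y axis) against that of Dpt, Cd34 and Pi16 (x axis), 1 point per tumour, labelled by replicate and coloured by genotype. NeuNT/H1074R replicate 4 is lowest on the x axis (−1.18) and NeuNT replicate 4 lowest on the y axis (−0.62).

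The genes were not all highest, or all lowest, in the same tumour. Residual SDs between tumours of a genotype had a median of 0.54 over the 39 genes and 0.248 over all genes, and 24 of the 39 (61.5%) were above 0.5, against 15.6% of all genes. The highest value lay in NeuNT replicate 2 for 21 of the 39 (53.8%; 15.7% of all genes). It lay in NeuNT/H1074R replicate 1 for 8 (20.5%; 9.45%). For 6 it lay in NeuNT replicate 3 (15.4%), which is no more than the 16.4% of all genes. The lowest lay in NeuNT replicate 4 for 18 (46.2%; 15.4% of all genes), in NeuNT/H1074R replicate 4 for 12 (30.8%; 12.6%) and in NeuNT/H1074R replicate 3 for 9 (23.1%; 13.6%). The low tumour thus differed by role: NeuNT replicate 4 for 9 of the 12 collagens and NeuNT/H1074R replicate 4 for all 3 resting adventitial genes.

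Correlations over the 8 tumours were computed for each of the other 38 genes with Col1a1 and with Dpt, with exact two-sided permutation p-values adjusted over all 16634 other genes. For Col1a1, 6 of the 38 had a p under 0.05, all with positive r, beside 3% of all genes (4.38% in either direction), and 0 passed after adjustment. The strongest was Col5a1, with r = 0.88 and rho = 0.81 (exact permutation p = 0.00632, adjusted p = 0.998). Leaving out the tumours farthest from the median of Col1a1, NeuNT/H1074R replicate 3 and NeuNT replicate 3, gave r = 0.91. The others were Col12a1 (r = 0.82), Col1a2 (0.80), Fap (0.78), Lox (0.73) and Mmp14 (0.71), with rho from 0.71 to 0.88 and exact permutation p from 0.0137 to 0.0484. Without those tumours their r was 0.64, 0.59, 0.65, 0.72 and 0.60.

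For Dpt, 8 of the 38 had an exact permutation p under 0.05, again all with positive r, beside 1.91% of all genes (4.73% in either direction), and 0 passed after adjustment. The strongest was Pi16, with r = 0.91 and rho = 0.90 (exact permutation p = 0.00233, adjusted p = 0.678), and r = 0.96 without NeuNT replicate 1 and NeuNT/H1074R replicate 4. With each genotype centred on its own mean the r of Pi16 was 0.88. The others were Col14a1 (0.82), Cd34 (0.82), Clec3b (0.81), Lum (0.79), Ogn (0.79), Dcn (0.76) and Mfap4 (0.76), with rho from 0.76 to 0.86 and exact permutation p from 0.0118 to 0.0298. Without those tumours their r was 0.83, 0.82, 0.75, 0.77, 0.84, 0.73 and 0.72. None of these 8 was among the 6 for Col1a1. Col1a1 and Dpt themselves had r = −0.05 and rho = −0.07 (exact permutation p = 0.911). Their r was −0.31 without the tumours extreme in Col1a1 and 0.00 without those extreme in Dpt. Counts were smaller with values centred within genotype, at 3 for Col1a1 and 5 for Dpt. Without single tumours the count for Col1a1 was 12 (NeuNT replicate 2), 3 (NeuNT replicate 4, and likewise NeuNT/H1074R replicate 3) or from 4 to 6, and the count for Dpt was 5 without NeuNT/H1074R replicate 4. No share over all genes is given for the centred values or for single tumours left out, so these counts cannot be set against a background.

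**Figure D5:**
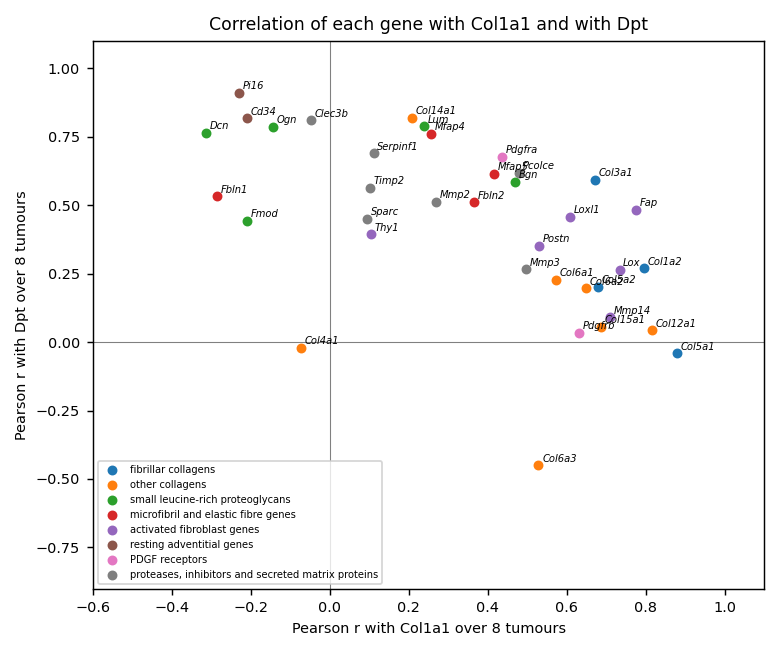
Pearson r of each gene with Col1a1 (x axis) and with Dpt (y axis) over the 8 tumours, coloured by role. Col5a1 lies farthest right (r = 0.88 with Col1a1), Pi16 highest (r = 0.91 with Dpt), and no gene has an exact p under 0.05 for both.

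The promoters of a pair of genes from each set are shown because their transcripts went together across tumours: Dpt with Pi16, and, of the genes that went with Col1a1, the type I chain Col1a2 and the type V chain Col5a1. They are the 250 bases before the RefSeq start site on assembly GRCm38.p6, all on the plus strand: chr1:164796413-164796662 for Dpt, chr17:29318632-29318881 for Pi16, chr6:4505368-4505617 for Col1a2 and chr2:27886175-27886424 for Col5a1. Capitals mark, on either strand, the GC box (GGGCGG), the CCAAT box (CCAAT) and the Smad box (CAGAC, the core that the TGF-β effectors can bind); TATAAA and the AP-1 site TGANTCA were also searched.
Dpt: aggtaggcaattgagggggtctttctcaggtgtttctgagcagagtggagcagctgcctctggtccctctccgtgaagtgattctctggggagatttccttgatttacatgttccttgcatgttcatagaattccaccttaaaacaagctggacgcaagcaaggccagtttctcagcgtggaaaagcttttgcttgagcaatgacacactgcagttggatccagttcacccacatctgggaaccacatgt
Pi16: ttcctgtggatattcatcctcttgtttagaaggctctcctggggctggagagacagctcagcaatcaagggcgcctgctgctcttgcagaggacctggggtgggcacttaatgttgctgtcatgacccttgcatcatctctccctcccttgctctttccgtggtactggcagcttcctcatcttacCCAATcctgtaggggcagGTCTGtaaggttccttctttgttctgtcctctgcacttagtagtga
Col1a2: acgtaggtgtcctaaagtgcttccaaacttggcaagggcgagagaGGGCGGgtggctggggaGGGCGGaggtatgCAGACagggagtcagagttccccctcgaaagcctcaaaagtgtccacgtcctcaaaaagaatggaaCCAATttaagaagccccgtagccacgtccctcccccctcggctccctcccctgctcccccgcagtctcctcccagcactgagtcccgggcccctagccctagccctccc
Col5a1: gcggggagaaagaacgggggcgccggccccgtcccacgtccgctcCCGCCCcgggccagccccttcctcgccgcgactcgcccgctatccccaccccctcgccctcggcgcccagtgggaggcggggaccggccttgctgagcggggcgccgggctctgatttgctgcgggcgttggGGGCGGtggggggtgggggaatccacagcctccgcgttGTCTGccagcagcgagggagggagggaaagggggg
The Dpt window held none of the 5 motifs. Pi16 held a CCAAT box 64 to 60 bases before the start and a reverse Smad box 46 to 42 bases before it. Col1a2 held GC boxes at 205 to 200 and 188 to 183 bases, a Smad box at 175 to 171 and a CCAAT box at 109 to 105. Col5a1 held GC boxes at 205 to 200 (reverse) and 73 to 68 bases and a reverse Smad box at 35 to 31. Of 32851 promoters of the same length, 32.7% held a GC box, 33.8% a CCAAT box, 42.2% a Smad box, 12.4% TATAAA and 6.75% the AP-1 site. The 28 promoter entries found, for 25 of the 40 genes, held them in 11, 6, 13, 4 and 2 cases. The matches are letters in the sequence and show no binding.

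Genes around these in the same pathways were read from 10 further lists, where 0 genes passed (limma, adjusted p = 0.978 at the smallest). Among other matrix structural genes, 26 of 36 had lower means, with a median of −0.12. An unadjusted p under 0.05 in limma was found for 3 of the 36, beside 3.82% of all genes. Of these, 2 were lower and Col13a1 was higher. Fbln5, an elastic fibre fibulin, had 8.60, 8.90, 7.82 and 7.60 in NeuNT and 7.36, 7.11, 7.23 and 6.87 in NeuNT/H1074R, so that every NeuNT/H1074R tumour lay below every NeuNT tumour. Its log2 difference was −1.09 ± 0.29 (SE; limma, unadjusted p = 0.00496, adjusted p = 0.978), and 1.1% of all genes had groups that were lower without overlap. Efemp1, its relative fibulin 3, had 7.71, 7.50, 6.40 and 6.76 in NeuNT and 5.51, 7.07, 4.91 and 4.69 in NeuNT/H1074R, a difference of −1.55 ± 0.53 (SE; limma, adjusted p = 0.978). As with Dpt, NeuNT/H1074R replicate 2 lay among the NeuNT tumours. Col13a1, a transmembrane collagen, stood at 0.25 ± 0.11 (SE), with 5.75 to 6.01 in NeuNT and 6.11 to 6.15 in NeuNT/H1074R.

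Other resting and universal fibroblast genes had lower means for 17 of 23, with a median of −0.23, including the semaphorin Sema3c (−1.85 ± 0.74 SE) and the extracellular peroxidase Gpx3 (−0.70). Inflammatory fibroblast genes had lower means for 12 of 14, with a median of −0.46, including the chemokine Ccl11 (−0.64). The 2 higher ones, Ptgs2 (0.62 ± 0.91, SE) and Saa3 (0.54 ± 1.15, SE), did not pass (limma, adjusted p of 0.978 and 0.987) and were picked out after their values were seen. Macrophage and mast cell markers, given above, had medians of −0.34 and −0.59, and their part in these values was not tested. Collagen maturation and cross-linking genes had lower means for 16 of 20, with a median of −0.20, including Pcolce2 (−0.69 ± 0.29 SE), a relative of Pcolce. Metalloproteases and inhibitors had lower means for 15 of 21 (median −0.22), and collagen and matrix receptors for 14 of 17 (median −0.18), with the proteoglycan Sdc2 at 0.48. TGF-β ligands, receptors and latency proteins had lower means for 10 of 17 (median −0.10), with the latency protein Ltbp1 at −0.78 ± 0.32 (SE). TGF-β response genes of fibroblasts had lower means for 12 of 17 (median −0.25), and mesenchymal transcription factors for 9 of 17 (median −0.05). These counts stand beside 50.5% and −0.00 over all genes. Genes of a list were read in the same 8 tumours, so their counts are not counts of independent results.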

How the data were processed

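Total RNA of 8 whole mammary tumours (4 NeuNT, 4 NeuNT/H1074R, grouped by the labelled genotype and numbered in accession order) was read on Affymetrix arrays. The authors deposited 1 table of log2 values for 41345 probes, made with the Expression Console and the Transcriptome Analysis Console, per the submitters' processing notes. The log2 scale was read from the values (0.887 to 13.6), which were used as deposited. Not given in the sources used here are the normalization, the background correction, tool versions and the genome build of the array. Arrays carry no read depth, and their number limits the precision.

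The platform annotation gave 1 gene symbol for 23521 probes, several for 1814 (left out) and none for 16010. Each gene was read from its single-symbol probe of highest mean, and genes in the lowest 25% by mean (5545) were left out. Genotypes were compared with limma 3.58.1 in R 4.3.3 (lmFit, eBayes with an intensity trend, two-sided, Benjamini-Hochberg over 16635 genes, threshold 0.05). On simulated data of 4 against 4 over 16635 genes, 18.2%, 54.2%, 85.2% and 94.4% of genes changed 1.5-, 2-, 4- and 8-fold were recovered, with 6.6 false calls per run. The changed genes were drawn from all tested genes, with a median residual SD of 0.248. The 39 genes had a median of 0.54, and recovery at their larger spread was not simulated, so these shares do not apply to them. Permutation p-values of correlations were adjusted over all tested genes, in place of the planned adjustment over the pairs. The smallest two-sided p that exact permutation of 4 against 4 tumours allows is 0.0286.

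All 40 genes are named, with up to 4 genes of smallest unadjusted p from each further matrix list. The genes, lists and tests were chosen with earlier results of these data known. Alternatives changed the tumours, normalization, centring, filter, probes, array weights, variance model and test. A fit without both NeuNT/H1074R tumours with high muscle genes was added after the data had been seen.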

Additional observations from a re-analysis of the deposited data

Results flagged for a closer look

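In 3 of the 102 groups of 4 tumours checked (each of the 39 genes, and averages over gene groups, in each genotype), 1 tumour stood apart by Dixon's criterion; chance at 1 in 20 would give 5.1. Col6a2 was lowest in NeuNT replicate 4 at 6.70, with 7.83 to 7.90 in the other NeuNT tumours. Col15a1 was lowest in the same tumour at 5.90, with 6.36 to 6.45 in the others. Fbln2 was highest in NeuNT replicate 1 at 9.94, with 8.94 to 9.05 in the others.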

How the results depend on the processing

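The counts of genes called (0 of all tested genes and 0 of the 39) were 0 under every alternative run. With 1 tumour left out, genes with a lower mean numbered 25 (without NeuNT replicate 3) to 36 (without NeuNT replicate 4), and their median ran from −0.51 to −0.10. The median of the fibrillar collagen and activated genes ran from −0.34 to 0.04, and that of the resting adventitial genes from −0.82 to −0.35. With values centred within genotype, 3 genes in place of 6 correlated with Col1a1 and 5 in place of 8 with Dpt. Without single tumours these counts ran from 3 to 12 and from 5 to 10. No share over all genes is given beside the counts of these alternatives.

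Of the 39 genes, 26 kept their sign in every alternative and 13 did not, 5 of them only when a tumour was left out; 44 of 662 values were reversed, and the cause was not tested. Quantile normalization gave Col1a1 0.013, Lox 0.015 and Mmp14 0.0027. Array weights gave Col1a1 0.072, Col12a1 0.024 and Loxl1 0.0058. Centring gave Col6a1 −0.013, and the mean of its probes −0.060. Without both NeuNT/H1074R tumours with high muscle genes, Col1a1 was 0.097, Col4a1 −0.083, Col6a1 −0.13, Loxl1 0.015 and Clec3b 0.030. With 1 tumour left out, ranges were −0.21 to 0.30 for Col1a1, −0.11 to 0.33 for Col5a1, −0.30 to 0.13 for Col5a2, −0.017 to 0.41 for Col4a1, −0.28 to 0.21 for Col6a1, −0.13 to 0.27 for Col6a2, −0.43 to 0.26 for Col12a1, −0.53 to 0.083 for Postn, −0.41 to 0.054 for Fap, −0.34 to 0.25 for Lox, −0.44 to 0.087 for Loxl1 and −0.28 to 0.12 for Mmp14.

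With 4 tumours a genotype, the unadjusted 95% interval of a difference reached 0.76 to either side at the median of the 39 genes. This is not a limit above which differences were resolved, because the width differed between genes. The interval of Serpinf1 (−0.68) lay below 0, while those of Dcn (−1.07) and Mmp3 (−1.09) held 0. After adjustment none of the 39 passed, including Dpt at −1.56. No paired analysis was possible because no tumour number of the labels occurs in both genotypes.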

Other observations

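Comp, a matrix protein of cartilage and fibrotic stroma that is listed here among TGF-β response genes, was high in some tumours and low in others in both genotypes. Its log2 signal was 9.61 in NeuNT replicate 1, 9.79 in NeuNT/H1074R replicate 2 and 10.29 in NeuNT/H1074R replicate 4. The other 5 tumours lay between 5.31 and 5.47. The log2 difference between genotypes was 1.24 ± 1.43 (SE; limma, adjusted p = 0.978). The high tumours were neither the highest in Col1a1 (NeuNT replicate 3, 11.04) nor all low in Dpt, which had 9.22, 8.23 and 5.21 in them.

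Prelp, a leucine-rich proteoglycan whose gene neighbours Fmod in the RefSeq annotation, had 10.06, 11.51, 9.06 and 9.52 in NeuNT and 9.20, 10.59, 10.16 and 10.16 in NeuNT/H1074R. It shared the high value of NeuNT replicate 2 with Fmod, while its log2 difference between genotypes was −0.01. Aspn, a leucine-rich proteoglycan gene near Ogn, stood at 0.32, with its lowest value in NeuNT replicate 4 (5.52, against 7.10 to 7.71 elsewhere).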
